A study of Mus musculus with 2 samples.

Results

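Mir126a, Mir221 and Mir222 are 3 of the 1973 microRNA genes counted in small RNA of the embryonic mouse liver. They were chosen by name, as microRNAs known from the cells that line blood vessels, and all 3 passed the minimum of 10 counts in each library. The samples were whole livers of strain B6NCrl at embryonic day 14.5, with no treatment named in the labels, sequenced as replicate 1 and replicate 2 of a single group. Per the labels each was 1 liver, collected on different days. Yet the sex is given as male and female pooled and the donor ID is the same for both. Differences between the 2 may therefore be partly technical. The tests below cover counting error only and measure no spread between livers. Same-strand counts totalled 2353946 in replicate 1 and 3132763 in replicate 2. Levels are CPM, which are counts scaled to these totals, and errors after ± are SDs between the 2 livers (n = 2). No group served as a control, so the design allowed a description of levels and a comparison of the 2 livers.

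MicroRNAs are cut from hairpin precursors and repress messenger RNAs that pair with their seed, bases 2 to 8. The product of Mir126a is typical of endothelial cells, where it represses Spred1 and Pik3r2, inhibitors of signalling from the receptor for vascular endothelial growth factor. The products of Mir221 and Mir222 repress Kit, the receptor for stem cell factor, in human endothelial cells and in human red cell precursors. The liver of this stage holds endothelium of its sinusoids beside immature liver cells and a large population of blood-forming cells.

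The mature sequences show which members can share targets. They are given 5′ to 3′ from RefSeq (GRCm38.p6) with the seed in capitals. The first lies on chromosome 2 from 26591402 to 26591423 (+ strand) and the next pair on the X chromosome from 19146307 to 19146329 and from 19146901 to 19146923 (- strand). The last, of Mir1928, lies on chromosome 1 from 74206562 to 74206578 (- strand) and is shown because it has the seed of the pair.
mmu-miR-126a-3p: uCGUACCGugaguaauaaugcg
mmu-miR-221-3p: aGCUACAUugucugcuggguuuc
mmu-miR-222-3p: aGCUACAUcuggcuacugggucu
mmu-miR-1928: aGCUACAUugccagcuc
The products of Mir221 and Mir222 begin with the same 8 bases and match at 11 of 23 positions when aligned from their 5′ ends. Among 1679 mature microRNAs in the RefSeq table, the seed of mmu-miR-126a-3p occurred in 0 others, and that of the pair occurred in mmu-miR-1928 besides the pair. Mir1928 had 0 counts in both libraries, which allows up to 1.27 CPM in replicate 1 and 0.958 CPM in replicate 2. Counts are per hairpin, so those of Mir221 also hold any reads of mmu-miR-221-5p, which has another seed. In the same way those of Mir126a and Mir222 hold any reads of mmu-miR-126a-5p and mmu-miR-222-5p. Seeds were compared only among the mature products in that table, where mmu-miR-126a-5p and mmu-miR-222-5p were not searched.

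The hairpins are shown because the deposited counts are per hairpin. Capitals mark the mature products listed for each in the table.
Mir126a: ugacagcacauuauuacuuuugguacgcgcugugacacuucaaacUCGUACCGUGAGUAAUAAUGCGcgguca
Mir221: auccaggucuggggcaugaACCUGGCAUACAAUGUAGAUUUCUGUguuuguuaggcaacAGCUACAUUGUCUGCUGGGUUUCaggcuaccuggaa
Mir222: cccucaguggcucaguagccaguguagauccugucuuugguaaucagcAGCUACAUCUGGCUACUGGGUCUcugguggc
They are 73, 95 and 79 bases long, with predicted folding energies of -31.2 kcal/mol for Mir126a, -42.8 kcal/mol for Mir221 and -40.7 kcal/mol for Mir222. Neither Mir221 nor Mir222 has 20 consecutive bases in common with any other annotated hairpin on either strand. Mir126a does so with Mir126b alone, which is its antisense gene. Of annotated transcripts, mmu-miR-126a-3p was found in those of Mir126a and Egfl7 and the products of the pair in those of their own genes alone.

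Mir126a (ENSMUSG00000065540) lies on chromosome 2 from 26591357 to 26591429 (GRCm38, + strand) inside its host Egfl7, which encodes a secreted protein of endothelial cells and spans 26580014 to 26593120 on the same strand. Of the 9 Egfl7 transcripts that span it, 8 hold it in an intron and 1, annotated as a retained intron, holds it in an exon. In the 4 of them with 10 exons it sits in intron 7, which is 600 bases long, 293 bases after the upstream exon and 234 bases before the next. A second annotated gene, Gm20532, also spans it on the same strand (26586639 to 26635634). A location inside a protein-coding gene on the same strand held for 155 of the 332 microRNA genes tested (46.7%). Libraries of RNA under 30 nucleotides do not measure Egfl7 messenger RNA, so the level of the host is not analysed here.

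Mir221 (ENSMUSG00000065422, chromosome X from 19146294 to 19146388) and Mir222 (ENSMUSG00000065471, 19146893 to 19146971) lie on the - strand with 504 bases between them, so Mir222 comes first in the direction of transcription. Neither lies in an annotated gene. The nearest other genes are the noncoding Gm14636, which starts 10009 bases beyond Mir222 on the coordinate scale, and the pseudogene Gm5383, 203065 bases away on the other side. The pair thus has no annotated host, unlike Mir126a.

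**Figure D1:**
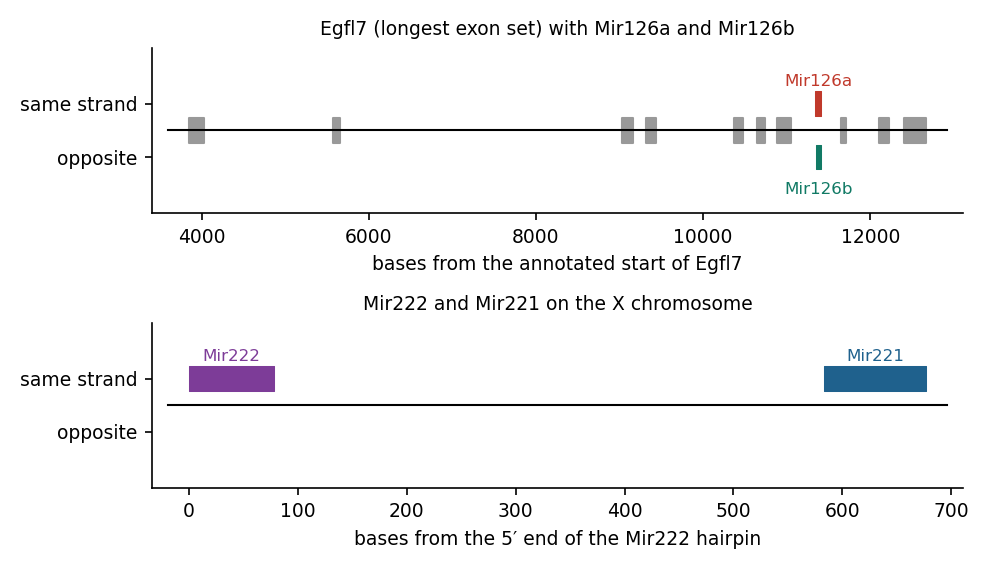
Position of the microRNA genes, with bases along the x axis and the strand on the y axis. The top panel counts bases from the annotated start of Egfl7 and shows the exons of a 10-exon transcript (grey), Mir126a on the same strand and Mir126b on the opposite strand. The bottom panel counts from the 5′ end of the Mir222 hairpin and shows Mir221 504 bases downstream.

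Mir126a was the second most abundant microRNA gene in both livers by counted reads. No gene count includes multimapping reads, which were 34.0% of all reads in replicate 1 and 33.1% in replicate 2. The ranks and shares given here therefore hold among the counted reads only. Mir221 and Mir222 ranked 113 and 135 by mean CPM, above most of the 332 genes tested but far below Mir126a in level. Mir126a had 144808 counts in replicate 1 and 180617 in replicate 2, or 61517 and 57654 CPM (59586 ± 2731). It took 6.15% of the same-strand counts of replicate 1 (95% Clopper-Pearson interval 6.12 to 6.18) and 5.77% of those of replicate 2 (5.74 to 5.79). These intervals do not overlap, and like all intervals here they cover counting error only. Reads amplified by PCR are not independent molecules, so the intervals may be too narrow even for that.

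Mir221 had 1564 counts in replicate 1 and 2003 in replicate 2, or 664 and 639 CPM (652 ± 17.7). Mir222 had 837 and 1081 counts, or 356 and 345 CPM (350.3 ± 7.43). The order Mir126a, Mir221, Mir222 was the same in both livers, and no replicate of one reached into the range of another. The SD was 4.58% of the mean for Mir126a, 2.72% for Mir221 and 2.12% for Mir222.

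Mir126a had 92.6 counts for each count of Mir221 in replicate 1 (95% exact interval 88.1 to 97.4) and 90.2 in replicate 2 (86.3 to 94.3). Divided by the length of each hairpin, the levels were 843 and 790 CPM per base for Mir126a, 6.99 and 6.73 for Mir221, and 4.50 and 4.37 for Mir222. The order per length was the same, but the lengths differ too little to have changed it, so this is no check of the order. At whole-tissue level, fewer cells of a type and less RNA per cell cannot be told apart, so these values say nothing on how many endothelial cells there were.

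Neighbours in level differed by member. Mir126a ranked 2 of all genes, between Mir122 (97349 and 110371 CPM), the microRNA typical of liver cells, and Mir411 (38455 and 40310 CPM), and then Mir26b (38267 and 38966 CPM). Its range lay apart from those of all these. The hairpin of Mir411 has 20 bases in common with that of another gene, so its own level is uncertain. Mir221 ranked 113 by mean CPM, next to Mir339, Mir542, Mir148b and Mir200b with means between 624 and 666 CPM. Mir222 ranked 135, next to Mir181a-1, Mir667, Mir377 and Mir203 with means between 329 and 370 CPM, of which Mir181a-1 and Mir203 share a stretch with another hairpin. The ranges of all 4 neighbours of Mir221 and of all 4 of Mir222 overlapped with that of the member, so these positions in the order are not separated beyond the spread of the 2 livers.

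**Figure D2:**
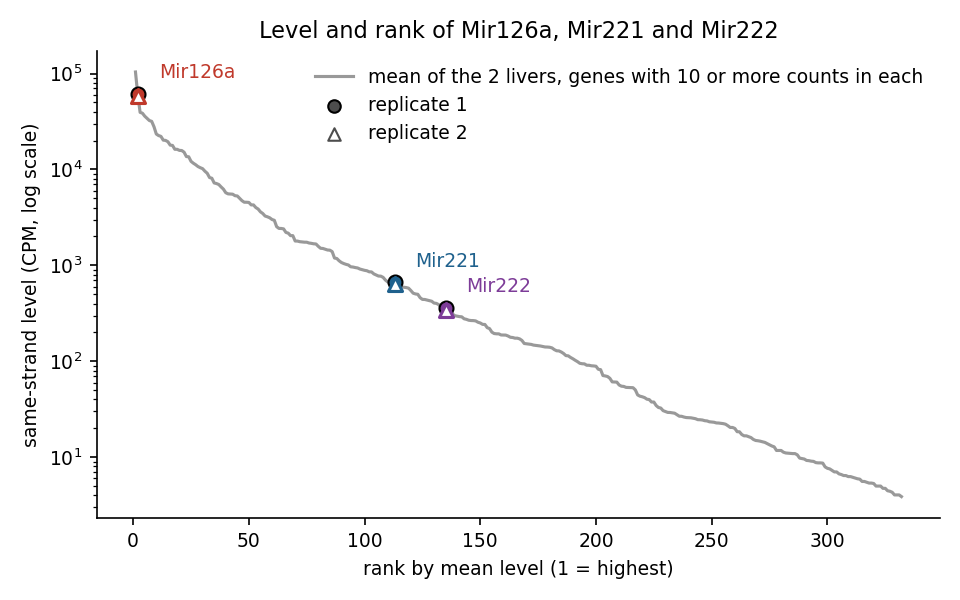
Level in CPM (y axis, log scale) against rank by mean level (x axis) for the 332 microRNA genes that reached 10 counts in both libraries. The line is the mean of the 2 livers, circles are replicate 1 and triangles replicate 2. Mir126a stands at rank 2, Mir221 at rank 113 and Mir222 at rank 135, with both livers nearly on top of each other.

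Almost no reads came from the strand opposite to the members. At Mir126a 33 counts of 144841 in replicate 1 (0.0228%, 95% Clopper-Pearson interval 0.0157 to 0.0320) and 40 of 180657 in replicate 2 (0.0221%, 0.0158 to 0.0301) were on the opposite strand, a mean share of 0.0225% ± 0.000454. The share was the same in both livers within counting error. Mir126b is annotated there (26591363 to 26591420, - strand) and its own count is not analysed here. Its hairpin is the exact reverse complement of 58 bases of the Mir126a hairpin, and its sequence is shown for the overlap, with its mature products in capitals.
Mir126b: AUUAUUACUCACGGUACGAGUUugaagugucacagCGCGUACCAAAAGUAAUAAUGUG
Its first product, mmu-miR-126b-5p, covers 19 bases of mmu-miR-126a-3p on the other strand. The predicted folding energy was -19.3 kcal/mol for the Mir126b hairpin, against -31.2 kcal/mol for Mir126a.

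Opposite-strand counts were found at 27 of the 332 tested genes in replicate 1 and 29 in replicate 2. By their number Mir126a ranked 5 in both, after Mir486 (139 and 220 counts), Mir337 (72 and 139), Mir3074-1 (54 and 84) and Mir130a (43 and 58). As a share, the value at Mir126a was the lowest of the 6 tested genes with 10 or more such counts in each library, where the highest were 12.7% and 12.0% at Mir486 and 11.7% and 13.0% at Mir3074-1. Over all tested genes together 0.0172% and 0.0195% of counts were on the opposite strand. Over all 1973 genes the share was 9.60% and 10.2%, so nearly all of it lay outside the tested genes. Mir221 and Mir222 had 0 opposite-strand counts in both libraries, which allows a share of up to 0.192% and 0.150% at Mir221 and up to 0.358% and 0.278% at Mir222.

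Between the livers, Mir126a was slightly but detectably higher in replicate 1, and the pair did not differ detectably. The ratio of replicate 1 to replicate 2 was 1.07 for Mir126a (95% exact interval 1.06 to 1.07), with a log2 ratio of 0.09 and an adjusted p of 6.96e-74 by the exact binomial test. By the same test 41.0% of the 332 genes differed and 17.8% were higher in replicate 1, so a call of this kind was common. By TMM or DESeq2 size factors, under which Mir126a also passed, 39.5% differed. At the depth of Mir126a the test calls differences of a few percent. With 1 library per liver it compares these 2 libraries and not livers in general.

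The ratio for Mir221 was 1.04 (95% exact interval 0.972 to 1.11), a log2 ratio of 0.06 with an adjusted p of 0.403 by the exact binomial test. For Mir222 it was 1.03 (0.940 to 1.13), a log2 ratio of 0.04 with an adjusted p of 0.688 by the exact binomial test. These intervals allow replicate 1 to be up to 1.11-fold higher for Mir221 and 1.13-fold higher for Mir222, so a shift of the size seen for Mir126a was not detectable at this depth. The median absolute log2 ratio over the 332 genes was 0.16. It was smaller than that of Mir126a in 31.6% of the genes, than that of Mir221 in 18.4% and than that of Mir222 in 15.1%.

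**Figure D3:**
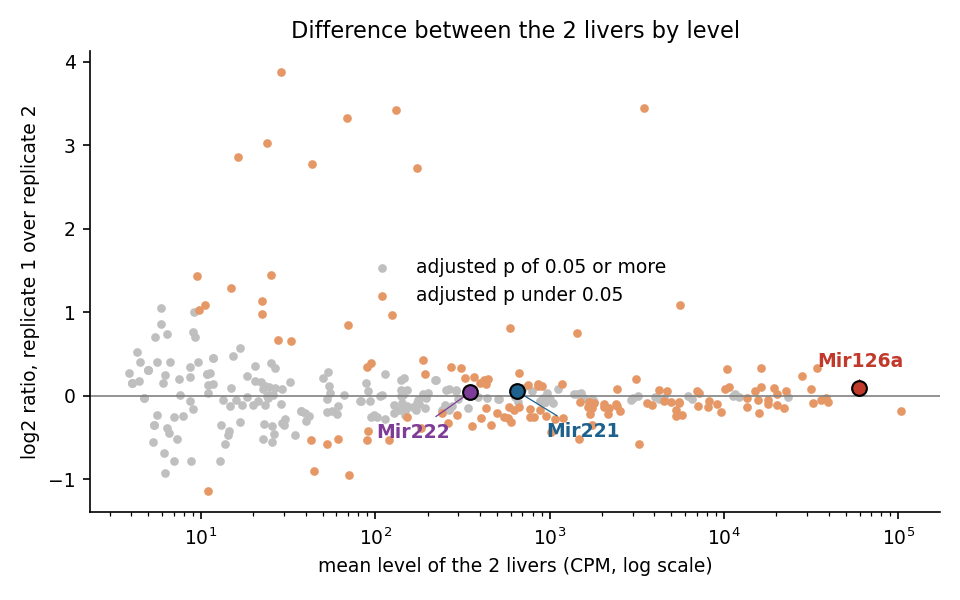
Log2 ratio of replicate 1 over replicate 2 (y axis) against mean level in CPM (x axis, log scale) for the 332 genes tested, coloured by whether the adjusted p of the exact binomial test was under 0.05. The 3 members lie close to 0, at 0.09 for Mir126a, 0.06 for Mir221 and 0.04 for Mir222, while some genes exceed 3.

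The genes whose ratio was most like that of each member over these 2 samples were found among 134 genes whose counts averaged 1000 or more. For Mir126a they were Mir322, Mir351 and Mir335, within 0.00486 of its log2 ratio. Mir322 had 20105 and 18840 CPM, which is 1.07-fold higher in replicate 1. For Mir221 they were Mir15a, Mir140 and Mir431, within 0.00209. For Mir222 they were Mir16-1, Mir16-2 and Mir188, within 0.0104, where Mir16-1 and Mir16-2 have 20 bases in common and are uncertain. With 2 samples such likeness is a description, and many genes have nearly equal ratios.

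Mir222 and Mir221 kept the same proportion in both livers. Mir222 had 0.535 counts for each count of Mir221 in replicate 1 (95% exact interval 0.491 to 0.582) and 0.540 in replicate 2 (0.501 to 0.581), a mean of 0.537 ± 0.0032. Per base of hairpin the proportion was 0.644 and 0.649. Thus Mir222, the upstream hairpin, gave fewer counts than Mir221 in both livers.

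The pair was set beside the 109 pairs of tested microRNA genes that are neighbours on the same strand within 10 kb. The log2 ratios of Mir221 and Mir222 differed by 0.012, against a median of 0.13 over all pairs and a range of 0.0024 to 1.13, and 9 pairs differed by less. In level, the weaker gene of a pair reached a median of 0.129 of the stronger in counts per gene, against 0.537 for Mir222 and Mir221, and 20 pairs were more even. These pairs share genes with each other, since a cluster of several microRNAs gives several pairs. They also differ in depth, and pairs with few counts can differ more through counting error alone. The difference of 0.012 is itself within counting error, as the intervals of Mir221 (0.972 to 1.11) and Mir222 (0.940 to 1.13) show.

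Levels of the microRNAs of other cells in this tissue are given beside the ratio of Mir126a, and their part in it was not tested. Over all genes tested, 17.8% were higher in replicate 1 and 23.2% in replicate 2. The label of liver was matched by Mir122 as the highest gene in both livers, which does not show that the 2 samples were alike. Outside the lists, Mir219a-2 was 15.4-fold and Mir137 10.8-fold higher in replicate 1, while Mir6236 had a ratio of 0.518. What lies behind these differences was not tested. The hepatocyte list held 10.6% of the counts in replicate 1 and 12.0% in replicate 2, with 0 of its 6 tested members above in replicate 1 and 4 above in replicate 2. The erythroid list held 5.06% and 4.05%, with 3 of 6 tested members higher in replicate 1 and 1 in replicate 2. Its highest member, the red cell microRNA Mir451a, had 38020 and 30243 CPM. The white cell list held 1.21% and 1.16%, with 1 of 5 tested members higher in each library, and was led by Mir223 (10498 and 9885 CPM), a microRNA of granulocytes and monocytes. The stromal list held 4.81% and 4.27%, with 2 of 5 tested members higher in replicate 1 and 1 in replicate 2, and was led by Mir21a (30177 and 25584 CPM). Mir142 of the white cell list and Mir486b of the erythroid list were not analysed here. The median log2 ratio was -0.15 for the hepatocyte, 0.19 for the erythroid, 0.0061 for the white cell and 0.09 for the stromal list, against -0.03 over all genes tested.

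Ratios of counts within a library need no scaling by its total. Mir126a had 0.632 counts for each count of Mir122 in replicate 1 (95% exact interval 0.628 to 0.636) and 0.522 in replicate 2 (0.519 to 0.525). For each count of Mir451a it had 1.62 in replicate 1 (1.60 to 1.63) and 1.91 in replicate 2 (1.89 to 1.92). Against Mir21a the ratio was 2.04 (2.02 to 2.06) and 2.25 (2.23 to 2.27). Against Mir223 it was 5.86 (5.78 to 5.94) and 5.83 (5.76 to 5.90). Relative to the liver cell microRNA, Mir126a was thus higher in replicate 1, relative to Mir451a and Mir21a it was lower there, and relative to Mir223 the livers were equal within counting error.

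The wider group of microRNAs known from vessels gave a mixed picture between the livers. Of 35 listed genes 32 had a row, and Mir126b, Mir24-1 and Mir378a were not analysed here. The list takes in microRNAs enriched in endothelium or regulating it, and it shares Mir155 and Mir146 with the white cell list. It held 22.9% of the counts of replicate 1 and 21.5% of those of replicate 2, of which Mir126a alone gave 26.8% in each. These shares are therefore not those of endothelial cells. Both copies of Mir218, which is linked to Slit and Robo signalling in vessels, missed the count minimum. Of the 30 tested members 10 were higher in replicate 1, 9 were higher in replicate 2 and 11 were not called. That is 63.3% called, beside 41.0% of all genes tested and 60% of the 215 genes that reached 100 counts in both. The median log2 ratio of the list was 0.07, against -0.03 over all genes tested.

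After Mir126a, the highest members were Mir17 (31476 and 33264 CPM), Mir322 (20105 and 18840 CPM), Mir20a (17310 and 18569 CPM) and Mir130a (17489 and 18128 CPM). Mir17 and Mir20a belong to a growth-associated cluster, and Mir130a is known to promote vessel formation in human cells. Their ratios lay between 0.932 and 1.07, with Mir322 higher in replicate 1 and the others higher in replicate 2. All 4 passed the exact test, with adjusted p-values of 1.63e-07 for Mir130a and smaller for the others.

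Among the 30 tested members, the largest ratios toward replicate 1 were those of Mir10b (6365 and 583 CPM), Mir10a (7584 and 3549 CPM) and Mir100 (1816 and 1076 CPM), which were 10.9-fold, 2.14-fold and 1.69-fold higher there. Mir10a and Mir10b lie in the Hox gene clusters. Large ratios were not particular to the vascular list. Of Hox cluster microRNAs outside it, Mir196a-2 was 8.40-fold, Mir615 6.68-fold and Mir196b 1.14-fold higher in replicate 1. Mir196a-2 had 101 and 16 counts, and its hairpin also shares a stretch with another, so its level is uncertain. The interval of Mir126a, 1.06 to 1.07, lay below those of Mir10b, Mir10a and Mir100, whose lowest bound was 1.61. Toward replicate 2 the largest were Mir155 (77.7 and 104 CPM), a microRNA also of activated white cells, Mir31 (745 and 884 CPM) and Mir92-1 (5264 and 6184 CPM), with ratios of 0.747, 0.843 and 0.851. The hairpin of Mir92-1 shares a stretch of 20 bases with another, so its level is uncertain. Within the list, the ratios of Mir126a, Mir221 and Mir222 were thus 1.07, 1.04 and 1.03, set beside 10.9 and 2.14 for the Mir10 genes.

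**Figure D4:**
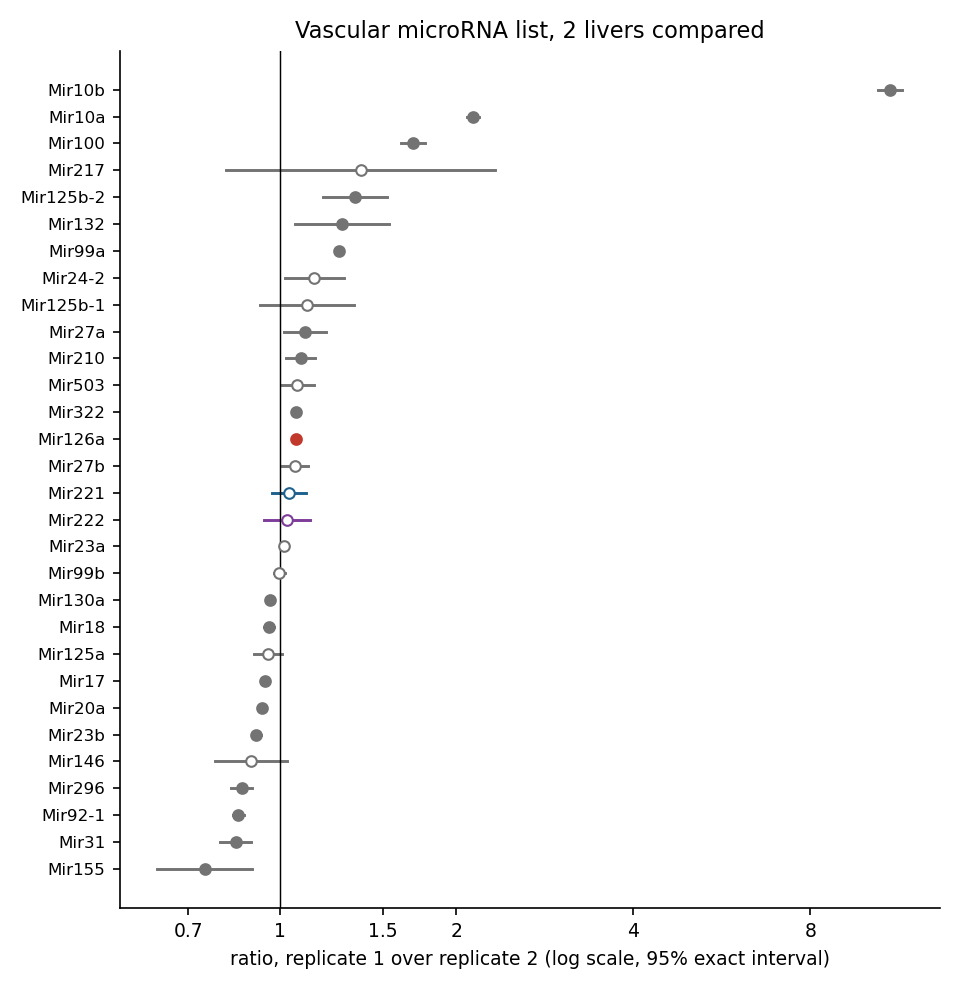
Ratio of replicate 1 over replicate 2 (x axis, log scale) with its 95% exact interval for the 30 tested members of the vascular list, ordered by ratio. Filled points had an adjusted p under 0.05, and open points did not. Mir126a (red) lies at 1.07, Mir221 (blue) at 1.04 and Mir222 (purple) at 1.03, while Mir10b lies at 10.9.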

How the data were processed

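Small RNA of 2 whole livers was sequenced, per the labels as RNAs under 30 nucleotides. The authors deposited whole, unscaled read counts for each microRNA gene, made on assembly mm10 with annotation M4, per the notes deposited with the files. The aligner, like the counter, is not given in the sources used here. Each table splits the count of a gene into reads on its own strand and reads on the opposite strand. Rows without a gene name did not enter the totals. Of 6395680 reads in replicate 1 and 8068090 in replicate 2, these rows hold those that did not map (18.6% and 17.7%), multimapping reads, which no gene count includes (34.0% and 33.1%), those outside genes on that strand (10.6% and 10.4%) and 0 ambiguous ones. Counts are per hairpin, so the arms of a hairpin were not separated, and differences between microRNAs in capture or amplification were not measured.

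Symbols and positions came from GENCODE M21 (GRCm38, the assembly also called mm10) by Ensembl ID, which matched 1894 of 1973 genes. Sequences are those of RefSeq (GRCm38.p6), where all 3 members matched by symbol, and hairpins were folded with RNAfold 2.7.2. Same-strand counts were scaled to CPM of the same-strand total. A count of 0 allows up to 3 counts. The 332 genes that reached 10 counts in both libraries were tested for a difference by an exact binomial test with the totals as weights (scipy 1.17.1), two-sided with the smaller tail doubled, and p-values were adjusted by Benjamini-Hochberg over all 332, at a threshold of 0.05. With 1 library per liver there are no residual degrees of freedom, so the test compares these libraries and covers counting error only. Log2 ratios had 0.5 added to each count, while fold ratios had no pseudocount. Intervals are 95% exact (Clopper-Pearson). The exact binomial test was tried on simulated counts that varied between libraries by counting error only, apart from the differences put in. The other steps were not tried in this way.

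The members and lists were chosen with earlier results of these data known. The named genes are the members, their hosts and partners within 10 kb, microRNAs with the same seed, the 2 next genes above and below in level, the 3 genes of at least 1000 mean counts with the nearest log2 ratio, the 5 highest vascular list members with the 3 largest ratios each way, and the highest member of the hepatocyte, erythroid, white cell and stromal lists. The listed Mir146a was matched to its annotation symbol Mir146 through RefSeq synonyms. Genes named for their opposite-strand counts were chosen after their values were seen. So were Mir219a-2, Mir137, Mir6236, Mir196a-2, Mir615 and Mir196b, named with their ratios from outside the lists. Alternatives were counts regardless of strand, edgeR 4.0.16 TMM and DESeq2 1.42.0 size factors, totals without the highest gene, other count minimums and pseudocounts, and leaving out each replicate.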

Additional observations from a re-analysis of the deposited data

How the results depend on the processing

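The direction and the call of each member between the livers, or its lack, were kept under all alternatives run for it. Other count minimums could not change the ratio of a member, only its adjusted p. The ratio of Mir126a ranged from 1.05 with the highest gene left out of the totals to 1.08 with TMM scaling, and its adjusted p from 1.88e-116 to 6.45e-45 by the exact binomial test. The adjusted p of Mir221 ranged from 0.21 to 0.692 and that of Mir222 from 0.489 to 1 by the same test. Levels depend on the total used. Counts regardless of strand, whose totals are larger by construction, gave 53690 CPM for Mir126a, 587 for Mir221 and 316 for Mir222, and moved their ranks to 2, 121 and 143. Totals without the highest gene gave 66479, 727 and 391 CPM. Leaving out each replicate gave ranks of 112 to 113 for Mir221 and of 134 to 135 for Mir222. Between 129 and 147 genes differed under the alternatives, beside 136, but as a share of the genes tested this ran from 19.7% of 700 with no minimum to 60% of 215 with a minimum of 100 counts. The split between higher in replicate 1 and higher in replicate 2 was 59 and 77 in the report, 66 and 65 by TMM or DESeq2 size factors and 54 and 92 without the highest gene. TMM and DESeq2 size factors each called 131 genes (39.5%). For the vascular list, where this alternative was chosen after seeing the data, they called 23 of 30 genes, 14 of them higher in replicate 1. The median log2 ratio of the vascular list was 0.0897 with a minimum of 1 count and 0.0555 with a minimum of 100. Over all genes tested the median was -0.0162 with a pseudocount of 10, -0.0184 with a minimum of 1 count and -0.0475 with a minimum of 100. Ratios between the livers cannot be had without a replicate. Among the members, depth limits Mir222 most, since its interval between the livers spans 0.940 to 1.13.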
